A study of Mus musculus with 4 samples.

Results

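Integrins, laminins and nidogens, the cell surface receptors and basement membrane proteins through which cells hold on to their matrix, were followed in BR5FVB1-Akt cells with and without decitabine. The 39 genes were picked by symbol, with earlier results of these data known. They were the genes tested whose symbol begins Itga, Itgb, Lama, Lamb or Lamc and does not contain bp, together with Nid1 and Nid2. They comprised 27 integrin genes (with the related genes Itgbl1 and Itgb2l), 10 laminin chain genes and 2 nidogen genes, out of 22180 genes tested. BR5FVB1-Akt is a mouse line whose tissue type the labels give as ovarian cancer; its genotype and strain are not given in the sources used here. The cells were grown in DMEM with serum. The control group was 2 arrays of cells without the drug, and the decitabine group 2 arrays of cells given 10 uM decitabine for 72 h. Decitabine, an analogue of cytidine, enters newly made DNA, where it captures the enzymes that methylate CpG dinucleotides, so that methylation falls as cells divide. RNA of each sample was read on 1 Affymetrix Mouse Gene ST array. The samples of a group are called biological replicates without saying how they were cultured. Every p-value therefore rests on the spread between these 4 arrays, that of the gene and, through the variance models given below, that of other genes.

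An integrin is a pair of an alpha and a beta subunit that crosses the membrane, binds matrix or another cell outside, and is coupled to actin inside through talin, kindlin and the proteins gathered around them. Which alpha subunit pairs with which beta subunit sets what is bound: fibronectin and other proteins with an RGD tripeptide, collagen, laminin, or counter-receptors on other cells. A laminin is a cross-shaped trimer of an alpha, a beta and a gamma chain, and the trimers form the sheet of a basement membrane on which epithelial and mesothelial cells rest. Nidogens bind the laminin gamma chain on one side and type IV collagen on the other, and so tie the laminin sheet to the collagen sheet.

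The values, 0.554 to 13.26 in range, were taken to be on a log2 scale, on which a difference of 1 is a doubling. Pearson's r, computed across genes and so not over independent replicates, was at least 0.993 within a group and at most 0.991 between groups. The spread between arrays of a group depended on level, with a median SD of 0.167 among genes below the median level and 0.084 among the others. Differences were therefore tested with limma under 2 variance models, which share the log2 fold changes and differ in the error. The first draws each gene's variance towards 1 common value, and the second towards the value usual at the gene's level (the intensity trend). Both were adjusted by Benjamini-Hochberg over all 22180 genes, with a threshold of 0.05.

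The line's own identity was checked on marker genes by the rank of their mean level among all tested genes, since no background level could be set. Of 8 genes listed for ovarian surface and mesothelial cells, Upk3b, Wt1, Lrrn4 and Upk1b ranked at the 99.8, 99.0, 96.6 and 96.6 percentiles, Msln and Krt7 at 70.1 and 69.2, and Muc16 and Pax8 at 45.5 and 20.6. Genes of fibroblasts and smooth muscle ranked as high, with Dcn at 99.8, Acta2 at 99.7, Pdgfra at 99.1, Col1a1 at 98.5 and Col1a2 at 98.0, and of 12 such genes 1 lay below the median level. The keratin genes Krt18, Krt19 and Krt8 ranked at the 95.02, 90.0 and 77.6 percentiles. Of 14 epithelial genes, these keratins among them, 7 lay below the median level. The adhesion and junction genes Cldn3, Dsp and Cdh1 ranked at 59.7, 56.8 and 54.1. Epcam, Pkp1, Cldn4 and Cldn7 ranked lower, at 42.5, 38.7, 30.4 and 23.7. Of 14 leukocyte genes, 11 lay below the median level, Ptprc at 14.7 and Cd3e at 18.2 among them. Cd14, Csf1r and Fcer1g ranked above it, at 61.6, 55.0 and 50.4.

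With decitabine, none of the 39 genes passed without the trend (background 0.144% of all genes, 0.131% higher and 0.0135% lower), and 6 passed with it (background 7.28%). Those 6 were Nid1, Itga7, Lama4, Itga6 and Itga5, which were higher, and Nid2, which was lower. The 5 that were higher compare with 3.68% of all genes called higher with the trend, and the 1 that was lower with 3.60%. In the fit without the trend the smallest adjusted p among the 39 was 0.0762, for both Nid1 and Itga7, and at a p under 0.05 before adjustment 9 genes were higher and 2 lower (background 14.3%, made up of 7.34% and 6.97%). The median log2 fold change of the 39 was 0.03, against 0.00 over all genes, with 23 positive and 16 negative. Both decitabine arrays lay above both control arrays for 15 of the 39 genes (background 23.4%) and below them for 9 (background 22.5%), and the groups overlapped for the other 15.

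**Figure D1:**
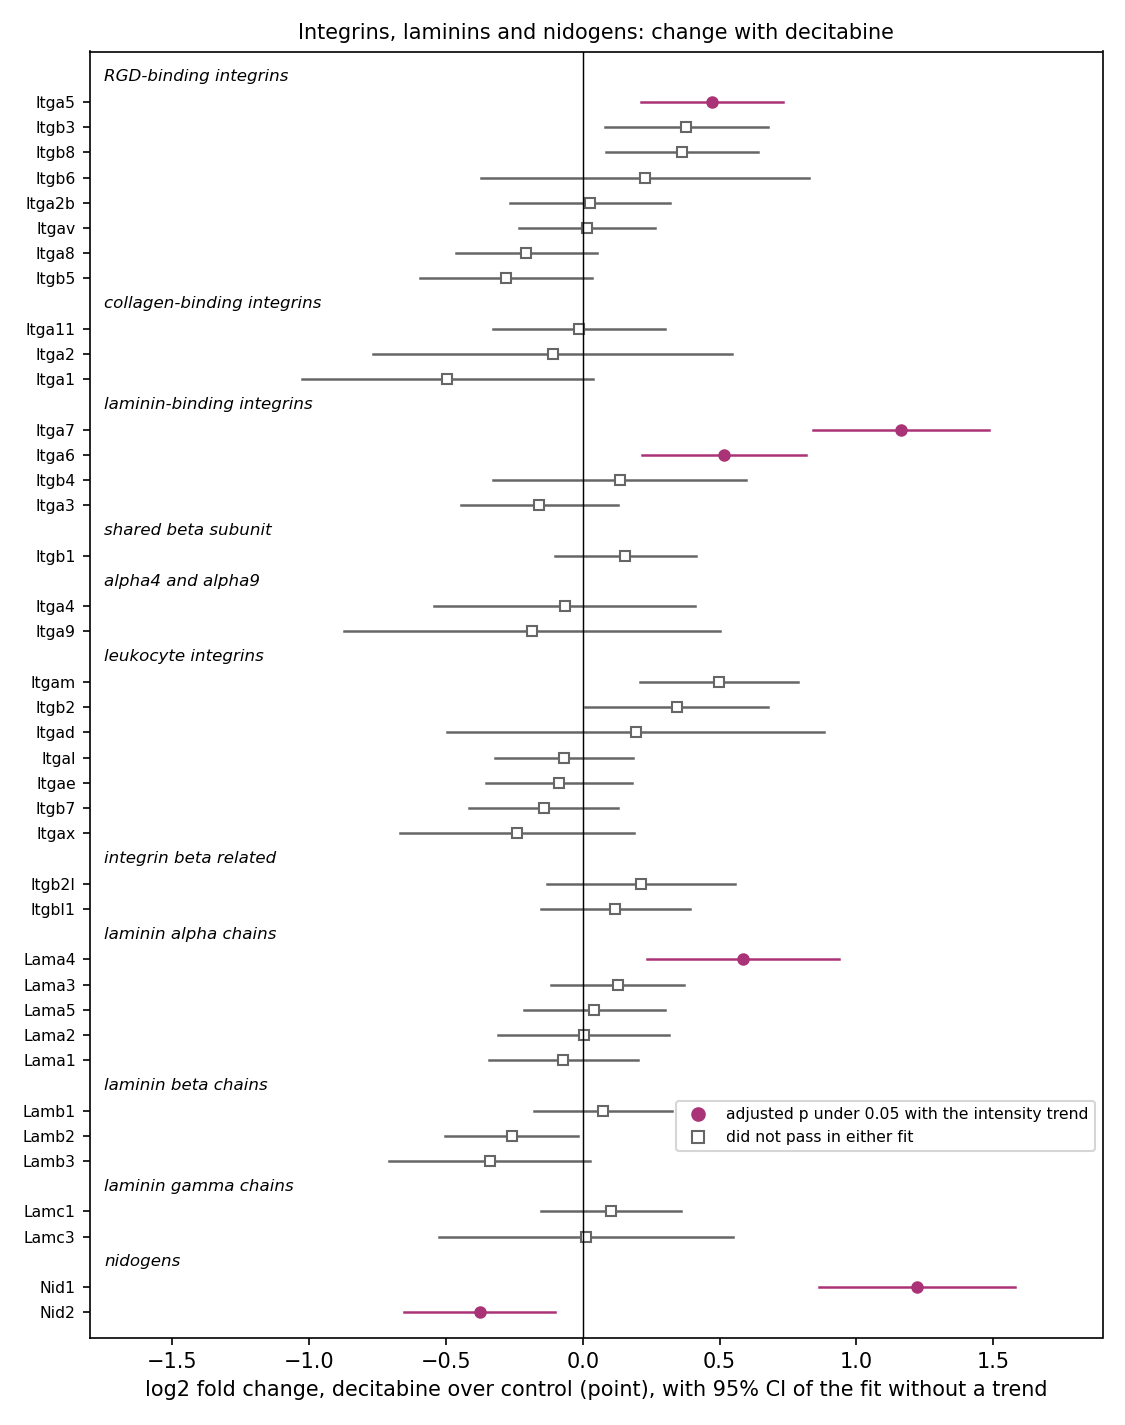
Log2 fold change of each of the 39 genes, decitabine over control (horizontal axis), by role, with the 95% confidence interval of the limma fit without the trend; filled circles passed with the intensity trend and open squares passed in neither fit. Nid1 at 1.22 and Itga7 at 1.16 stand to the right of all others, and the 31 genes other than the filled ones, Itgam and Itgb8 lie between -0.49 and 0.38.

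Genes that passed ranked between the 55.0 (Itga6) and 88.3 (Nid2) percentiles of level. All 6 were among the 19 genes at or above the median level, where 14.0% of all genes passed with the trend, and 0 were among the 20 below it, where 0.577% did. Of the 20 dimmer genes, 7 lay below the 25th percentile of level. For 36 of the 39 genes the 95% interval without the trend excluded a 2-fold difference in either direction, and for 20 it excluded a 1.5-fold difference. Over all 22180 genes these counts were 21301 and 15369. Of the 20 genes with a 1.5-fold difference excluded, 12 lay below the median level, where the spread between arrays was larger. These intervals rest on the common variance.

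**Figure D2:**
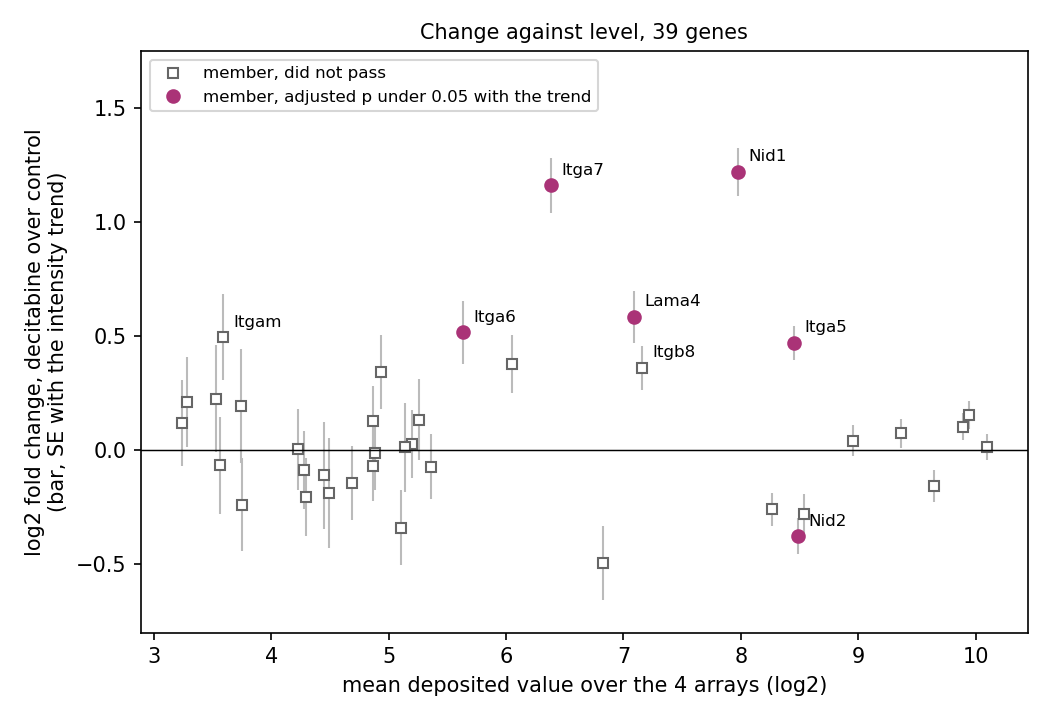
Log2 fold change, decitabine over control, against the mean deposited value over the 4 arrays for the 39 genes, with the limma standard error of the fit with the intensity trend as bars; filled circles passed with that trend. The filled points all lie to the right of 5.5 on the level axis, while Itgam, with a change of 0.50, lies near the dim end with a standard error of 0.19.

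With the trend, the 2 nidogens passed in opposite directions. Nid1 stood at 7.34 and 7.39 on the control arrays and at 8.75 and 8.42 on the decitabine arrays. Both decitabine values lay more than 1 log2 unit above both controls, and the 2 decitabine arrays differed from each other more than the controls did. The log2 fold change of Nid1 was 1.22 ± 0.14 (SE without the trend, 2 arrays per group), a 2.33-fold difference, with an adjusted p in limma of 0.0762 without the trend and 9.13e-05 with it. With the trend Nid1 kept its call in all 12 alternative settings, with an adjusted p of at most 0.0358. A second row of the array for Nid1, not used in the reported fits, read 6.41 and 6.37 in the controls against 7.35 and 7.19 with decitabine, a log2 difference of 0.88. Nid2, the close relative that shares the binding partners of Nid1, stood at 8.75 and 8.60 on the control arrays and at 8.33 and 8.26 on the decitabine arrays. Its decitabine values lay below both controls, by a log2 fold change of −0.38 ± 0.11 (adjusted p in limma 0.244 without the trend and 0.0159 with it). Nid2 no longer passed without control replicate 1 (adjusted p = 0.218), without control replicate 2 (0.0696), without decitabine replicate 2 (0.0688) and when all rows of the table were fitted (0.160), all with the trend.

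Of the genes that passed with the trend, only Nid1 and Itga5 had a promoter in the RefSeq tables used here. The promoter of Nid1, the denser of these in CpG dinucleotides, is shown. It is the run of 250 bases before the gene's start in build GRCm38.p6, at chr13:13437352-13437601 on the plus strand, with every CpG in capitals.
Nid1: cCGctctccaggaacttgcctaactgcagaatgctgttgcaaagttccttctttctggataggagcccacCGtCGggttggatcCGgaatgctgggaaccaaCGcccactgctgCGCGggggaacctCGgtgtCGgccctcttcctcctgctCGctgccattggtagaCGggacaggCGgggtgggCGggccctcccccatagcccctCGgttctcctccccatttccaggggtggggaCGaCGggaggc
It holds 16 CpGs. In the whole window of 300 bases, which adds 50 after the start, there were 20, or 0.640 of the number expected from its C and G content. Over all 32851 promoters of that table the median was 7 CpGs, and 35.8% reached a ratio of 0.6. Among the 9 genes of the set with a promoter at or above 0.6, 1 passed with the trend. DNA methylation itself was not measured here.

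Among the laminin chains, 1 of 10 passed with the trend, against 7.28% of all genes. Below the median level were 4 of the 10, and at or above it 14.0% of all genes passed. The chain that passed was Lama4, an alpha chain typical of mesenchymal cells and of vessel walls. Lama4 stood at 6.93 and 6.66 on the control arrays and at 7.47 and 7.30 on the decitabine arrays. The groups were separated, with the lower decitabine array 0.37 above the higher control. Its log2 fold change was 0.59 ± 0.14 (adjusted p in limma 0.197 without the trend and 0.0113 with it). Lama4 no longer passed without control replicate 1 (adjusted p = 0.0568), without control replicate 2 (0.167) and with all rows fitted (0.152). The other alpha chains did not pass. Lama5, the most widespread alpha chain of adult epithelial basement membranes, was at 0.04 with a 95% interval of −0.22 to 0.30, and Lama1, the chain of the early embryo, at −0.07. Lama3, the alpha chain of the laminin that anchors epidermis, was at 0.13, and Lama2, that of muscle and nerve, at 0.00, with a sign that turned under quantile normalization and with centred arrays.

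The beta and gamma chains that pair with these alpha chains did not pass in either fit. Lamb2, the beta chain of neuromuscular junctions and the kidney filter, had decitabine values of 8.13 and 8.14 against 8.39 and 8.41, a separated and closely replicated difference of −0.26 ± 0.09 (adjusted p in limma 0.327 without the trend and 0.0578 with it), and with the trend it passed in 3 of 12 alternative settings, under quantile normalization (0.0493) and when genes below the 25th percentile (0.0372) or the median level (0.0265) were dropped. Lamb3, the beta chain of the epidermal laminin, was at −0.34 ± 0.14, with decitabine arrays of 4.79 and 5.08 below control arrays of 5.37 and 5.19. Lamb1 stood at 9.38 and 9.29 against 9.40 and 9.41, a change of 0.07 with a 95% interval of −0.18 to 0.33. Lamc1, the gamma chain of most laminins and the one that nidogens bind, was at 0.10 with an interval of −0.15 to 0.36. For Lamb1 and Lamc1 a 1.5-fold difference thus lay outside the interval. Lamc3 was at 0.01, with decitabine arrays of 4.85 and 5.44 on either side of the controls, and this sign turned with centred arrays.

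The largest log2 fold change among the 27 integrin genes was that of a laminin-binding subunit. Itga7, the main laminin receptor subunit of skeletal and smooth muscle, stood at 5.92 and 5.69 on the control arrays and at 6.91 and 7.02 on the decitabine arrays. The arrays of a group lay within 0.24 of each other, and the groups were 0.99 apart at their nearest. Its log2 fold change was 1.16 ± 0.13, a 2.24-fold difference (adjusted p in limma 0.0762 without the trend and 2.97e-04 with it), and with the trend its call held in all 12 alternative settings, at an adjusted p of at most 0.0414. Itga6, whose subunit pairs with Itgb1 or Itgb4 and holds epithelial cells to laminin, stood at 5.32 and 5.43 on the control arrays and at 5.80 and 5.98 on the decitabine arrays. The groups were separated, by a log2 fold change of 0.52 ± 0.12 (adjusted p in limma 0.191 without the trend and 0.0488 with it). The call of Itga6 rested on the settings: it was lost with quantile normalization (adjusted p = 0.0509), centred arrays (0.0679), robust eBayes (0.0539) and all rows fitted (0.215), and without control replicate 1 (0.342), control replicate 2 (0.209) or decitabine replicate 2 (0.179). The third laminin-binding alpha subunit, Itga3, did not pass, at −0.16 ± 0.11 with values of 9.64 and 9.82 against 9.54 and 9.60. Itgb4, the partner of Itga6 in hemidesmosomes, was at 0.13 ± 0.18, with decitabine arrays of 5.08 and 5.57 that enclosed the controls at 5.23 and 5.15. Itgb1, which pairs with all 3 of these alpha subunits and with most others, was at 9.89 and 9.85 against 9.97 and 10.07, a separated difference of 0.15 ± 0.10 that did not pass (95% interval −0.10 to 0.41).

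Some markers of smooth muscle and fibroblasts also passed with the trend on the same arrays. Itga7 and Lama4 are known in those cell types too. Of 12 such markers, 4 passed as higher and 1 as lower with the trend (background 3.68% and 3.60%) and 0 without it (0.144%), with a median log2 fold change of 0.16. Of these 12, 1 lay below the median level, and 14.0% of all genes at or above that level passed with the trend. Their mean level was 8.72 to 8.81 on the control arrays and 9.04 to 9.12 on the decitabine arrays. Thy1 (1.48 ± 0.17) and the smooth muscle actin gene Acta2 (0.72 ± 0.10) had the smallest p-values. The other genes of this list were named after their values were seen. Cnn1 (0.98 ± 0.165) and Tagln (0.73 ± 0.19) also passed as higher, and Pdgfra as lower (−0.28 ± 0.10). Lum (0.29 ± 0.21), Des (0.19 ± 0.12), Col1a1 (0.14 ± 0.10) and Dcn (0.02 ± 0.10) did not pass. Nor did Col1a2 (−0.09 ± 0.10), Pdgfrb (−0.17 ± 0.17) and Col3a1 (−0.25 ± 0.11). Of the 8 ovarian surface and mesothelial markers, 2 passed as higher and 3 as lower with the trend (background 3.68% and 3.60%) and 0 without it (0.144%). Below the median level were 2 of these 8. Their mean level was 7.97 to 8.04 on the control and 8.03 to 8.07 on the decitabine arrays. Upk1b (0.85 ± 0.10) and Msln (0.86 ± 0.10) were higher, and Lrrn4 (−0.64 ± 0.10), Wt1 (−0.28 ± 0.10) and Upk3b (−0.19 ± 0.10), named after their values were seen, were lower. Endothelial markers, of which 9 were measured and 0 passed in either fit, had a mean level of 4.32 to 4.46 on the control and 4.54 to 4.60 on the decitabine arrays. Of these 9, 7 lay below the median level, where 0.577% of all genes passed with the trend. Epithelial markers had 3 of 14 higher with the trend (background 3.68%), with 7 of the 14 below the median level. Their mean level was 5.52 to 5.57 on the control and 5.72 to 5.76 on the decitabine arrays. The part of these shifts in the values of Itga7, Lama4 and Itga6 was not tested. In RNA of a whole culture, fewer cells of a type and less RNA per cell cannot be told apart.

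**Figure D3:**
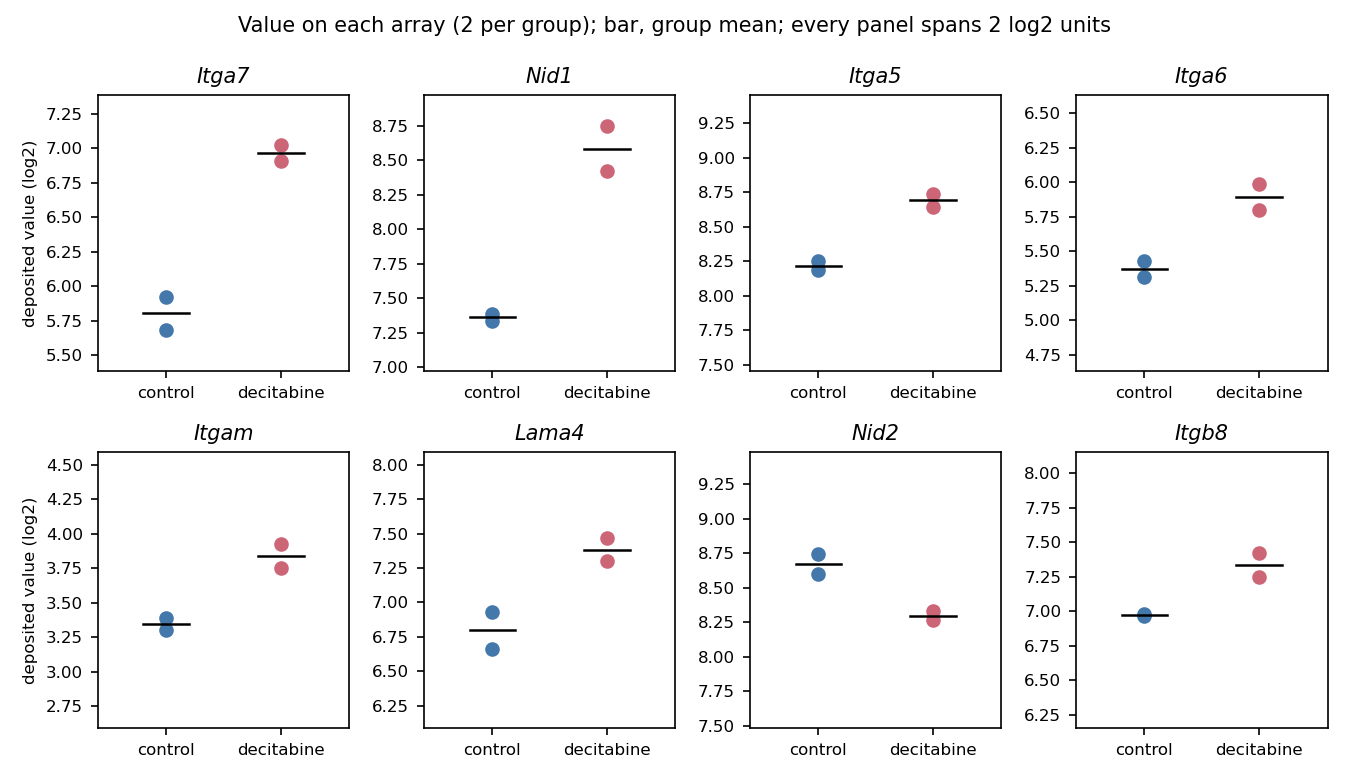
Deposited log2 value on each of the 4 arrays (points; bar, group mean) for the 6 genes that passed with the intensity trend and for Itgam and Itgb8, the next by p-value (8 in all), each panel spanning 2 log2 units. The decitabine points lie above the control points in 7 panels and below them in the panel of Nid2, and the gap is widest for Itga7 and Nid1.

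Of 8 integrin subunits of the RGD-binding group, 1 passed with the trend (background 7.28%). Of the 8, 3 lay below the median level, and at or above it 14.0% of all genes passed. The subunit that passed was Itga5, which with Itgb1 forms the principal fibronectin receptor. Itga5 stood at 8.25 and 8.18 on the control arrays and at 8.64 and 8.74 on the decitabine arrays. The values of each group lay within 0.10 of each other and the groups were separated. The log2 fold change of Itga5 was 0.47 ± 0.10, a 1.39-fold difference (adjusted p in limma 0.178 without the trend and 0.00349 with it). Itga5 did not pass without control replicate 1 (adjusted p = 0.0589), without control replicate 2 (0.0796) and with all rows fitted (0.0913). Itgb8, whose pair with Itgav releases active TGF-beta from its latent form, stood at 6.97 and 6.98 against 7.42 and 7.25. The difference of 0.36 ± 0.11 lay at the threshold with the trend (adjusted p in limma 0.0502, and 0.255 without the trend). With the trend Itgb8 passed in 6 of 12 alternative settings, with adjusted p-values from 0.0247 (genes below the median level dropped) to 0.301 (without control replicate 1).

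The other RGD-binding subunits did not pass. Itgb3, the beta subunit of the vitronectin receptor and of the platelet receptor for fibrinogen, was at 0.38 ± 0.12, with separated values of 5.93 and 5.79 against 6.32 and 6.16. Itgb5, another partner of Itgav, was at −0.28 ± 0.12, with 8.78 and 8.57 against 8.47 and 8.33, and with the trend it passed in 2 of 12 alternative settings. Itgav, the alpha subunit common to these beta subunits, stood at 10.08 and 10.10 against 10.07 and 10.14. Its change of 0.02 had a 95% interval of −0.23 to 0.26, so a 1.5-fold difference lay outside it, and its sign turned with centred arrays. Itgb6, the epithelial partner of Itgav, was at 0.23 ± 0.23, with overlapping groups. Itga8, the nephronectin receptor subunit of developing kidney, was at −0.21 ± 0.10, and the platelet subunit Itga2b at 0.03 ± 0.11. The platelet and megakaryocyte list held 5 measured genes, Itga2b among them, and 0 passed in either fit. Of the 5, 4 lay below the median level, where 0.577% of all genes passed with the trend.

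The promoters of Itga5 and Itgb8 are shown as a pair of RGD-binding receptor genes with moderate CpG density, beside the denser one of Nid1. Both lie on the minus strand of GRCm38.p6, at chr15:103366792-103367041 and chr12:119238277-119238526, with CpGs in capitals and 250 bases before the start in each.
Itga5: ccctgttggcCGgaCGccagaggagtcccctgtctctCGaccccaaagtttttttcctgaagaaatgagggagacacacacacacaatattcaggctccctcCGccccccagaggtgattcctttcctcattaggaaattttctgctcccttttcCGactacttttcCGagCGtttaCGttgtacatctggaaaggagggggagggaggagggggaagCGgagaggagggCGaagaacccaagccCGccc
Itgb8: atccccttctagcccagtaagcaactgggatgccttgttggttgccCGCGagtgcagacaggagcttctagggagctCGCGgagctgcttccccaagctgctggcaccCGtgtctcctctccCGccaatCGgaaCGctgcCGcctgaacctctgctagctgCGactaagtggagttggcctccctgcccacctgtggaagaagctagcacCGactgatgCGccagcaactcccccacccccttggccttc
The windows of 300 bases of Itga5 and Itgb8 held 13 CpGs each, at 0.504 and 0.488 of the number expected. Neither reached the ratio of 0.6.

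The collagen-binding alpha subunits Itga1, Itga2 and Itga11 all had negative estimates and none passed in either fit. Itga1, a receptor for type IV collagen, stood at 7.10 and 7.04 on the control arrays and at 6.87 and 6.29 on the decitabine arrays. The decitabine arrays differed from each other by more than the nearer of them did from the controls, and the change was −0.49 ± 0.21 (adjusted p in limma 0.376 without the trend and 0.104 with it). Without decitabine replicate 1 it was −0.79 and passed with the trend (adjusted p = 0.00205), and without decitabine replicate 2 it was −0.20. Itga2, a collagen receptor subunit of platelets and epithelia, was at −0.11 ± 0.26 and Itga11, one of fibroblasts, at −0.01 ± 0.12, with overlapping groups in both, and the signs of both turned when single arrays were left out. The subunits Itga4 and Itga9, which share ligands such as Vcam1, were at −0.07 ± 0.19 and −0.19 ± 0.27, also with overlap.

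Integrins of leukocytes lay in the dim part of the array. All 7 ranked below the median level, at the 21.3 to 45.4 percentiles, and 0 passed in either fit. Of all genes below that level, 0.577% passed with the trend. Itgam, the alpha subunit of the complement receptor of macrophages and neutrophils, stood at 3.30 and 3.39 on the control arrays and at 3.75 and 3.93 on the decitabine arrays. The groups were separated, by 0.50 ± 0.11 without the trend (adjusted p in limma 0.191) and with an SE of 0.19 with it (0.169). Its partner Itgb2 was at 0.34 ± 0.13, with 4.87 and 4.65 against 5.01 and 5.199. The lymphocyte subunits Itgal (−0.07) and Itgae (−0.09), the gut homing subunit Itgb7 (−0.14) and the dendritic cell subunit Itgax (−0.24) had negative estimates, and Itgad was at 0.19 ± 0.27. Of 14 leukocyte markers, with Itgam among them, 11 lay below the median level and 0 passed in either fit. Their mean level was 4.03 to 4.11 on the control and 4.18 to 4.27 on the decitabine arrays. The part of that difference in the values of Itgam and Itgb2 was not tested. Itgbl1, which resembles the extracellular repeats of a beta subunit, and Itgb2l, a relative of Itgb2, were at 0.12 ± 0.11 and 0.21 ± 0.13 and ranked at the 16.2 and 16.8 percentiles.

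The promoter of Itgam, a gene best known from myeloid cells, is shown as the sparsest of the 4 printed here, at chr7:128062390-128062639 on the plus strand, with CpGs in capitals.
Itgam: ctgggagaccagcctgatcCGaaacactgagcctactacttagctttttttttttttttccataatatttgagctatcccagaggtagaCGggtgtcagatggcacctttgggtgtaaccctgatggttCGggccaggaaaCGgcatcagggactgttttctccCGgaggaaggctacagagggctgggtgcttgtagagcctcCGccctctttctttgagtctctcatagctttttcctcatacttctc
It holds 6 CpGs, against 16 in the same stretch before Nid1. Of the 39 genes, 25 had an entry in the RefSeq promoter table, with 28 promoters among them. A ratio of at least 0.6 was reached by 9 of the 28 (32.1%, against 35.8% of all promoters). Among the 9 genes with such a promoter, Nid1 passed with the trend and Itga3, Itga8, Itgav, Itgb1, Itgb5, Itgb6, Lama5 and Lamb1 did not. Among the 16 with only sparser promoters Itga5 passed. Of the 6 genes that passed with the trend, 4 (Itga6, Itga7, Lama4 and Nid2) are among the 14 without an entry. The letters GGGCGG, a GC box, were found on either strand in 14 of the 28 windows (50%, against 35.7% of all promoters), including those of Nid1, Itga5 and Itgam. The letters TGANTCA, an AP-1 element, were in 3 (10.7% against 7.81%), those of Itga3, Itga9 and Itgax, and GGAATG, a TEAD element, in 3 (10.7% against 14.7%), those of Nid1, Itgb1 and Lamb3. A window could hold more than 1 of these motifs.

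Other components of the basement membrane, with its receptors outside the integrins, were compared next. Of 27 such genes, 2 passed as higher and 5 as lower with the trend (background 3.68% and 3.60%), and 0 without it (0.144%), where a p under 0.05 before adjustment was reached by 3 higher and 8 lower genes (background 7.34% and 6.97%). Below the median level were 9 of these 27 genes, and at or above it 14.0% of all genes passed with the trend. The list's median was −0.01, against 0.00 over all genes. The genes with the smallest p-values were Tinagl1, a secreted matricellular protein, at 0.84 ± 0.12 (8.67 and 8.49 against 9.34 and 9.51), and Papln, a matrix protein with protease inhibitor domains, at −0.62 ± 0.10 (6.72 and 6.64 against 6.11 and 6.004). The others that passed with the trend, named after their values were seen, were Fbln2, which binds nidogens and laminins (0.45 ± 0.10), and, as lower, the laminin receptor dystroglycan Dag1 (−0.44 ± 0.10), Frem2 (−0.71 ± 0.16), Hmcn1 (−0.57 ± 0.15) and the type IV collagen chain Col4a5 (−0.32 ± 0.10).

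Among 29 integrin ligands other than laminins, 5 passed as higher and 1 as lower with the trend (background 3.68% and 3.60%) and 0 without it (0.144%), and the median was 0.09. Of these ligands, 12 ranked under the median level, and at or above it 14.0% of all genes passed with the trend. Vcam1, the ligand of integrins with Itga4, was at 1.06 ± 0.10 (8.44 and 8.39 against 9.42 and 9.53), and Ccn2, a matricellular ligand of several integrins, at 1.41 ± 0.17 (6.998 and 6.55 against 8.18 and 8.17). Also past the threshold with the trend, and named after their values were seen, were fibronectin, Fn1, the ligand of the pair of Itga5 and Itgb1 (0.48 ± 0.10), Ccn1 (0.62 ± 0.14), Icam1, a ligand of integrins with Itgb2 (0.39 ± 0.10), and, as lower, the junction molecule F11r (−0.45 ± 0.10).

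Of 34 genes of integrin activation and the adhesion complex, 1 passed without the trend (background 0.144%), and 9 as higher and 1 as lower with it (3.68% and 3.60%); the list's median was 0.07. Of the 34, 5 lay below the median level, and at or above it 14.0% of all genes passed with the trend. The one that passed in both fits was Tgfb1i1, a relative of paxillin at focal adhesions, which rose by 1.57 ± 0.13 from 6.41 and 6.34 to 8.07 and 7.81 (adjusted p in limma 0.0442 without the trend). Plaur, the urokinase receptor that associates with integrins, was at 0.92 ± 0.10 (7.08 and 7.12 against 8.08 and 7.95). The talin gene Tln1 (0.45 ± 0.10), whose product switches integrins on from inside, and the vinculin gene Vcl (0.34 ± 0.11) passed as higher with the trend. So did the zyxin gene Zyx (0.39 ± 0.10), the scaffold gene Bcar1 (0.58 ± 0.10), Cd63 (0.46 ± 0.10), Slc3a2 (0.35 ± 0.10) and Tns1 (0.40 ± 0.12). Parvb was lower (−0.64 ± 0.15). Among those that did not pass were Pxn (−0.01 ± 0.11), Parva (0.02 ± 0.10), Rsu1 (0.01 ± 0.10) and Tln2 (−0.05 ± 0.10). The genes from Tln1 to Tln2 were named after their values were seen. Among 13 enzymes that add glycans to integrins and dystroglycan or cut laminins, 1 was higher and 3 were lower with the trend (background 3.68% and 3.60%). Without it 0 passed (0.144%), and the median was 0.05. Below the median level were 3 of the 13, and the share of all genes at or above it was the same 14.0%. Mgat3, which adds the bisecting glycan to integrins and other glycoproteins, was at −1.14 ± 0.14 (7.93 and 7.77 against 6.86 and 6.56), and Large2, which builds the laminin-binding glycan of dystroglycan, at −0.71 ± 0.11 (6.63 and 6.67 against 6.02 and 5.87).

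**Figure D4:**
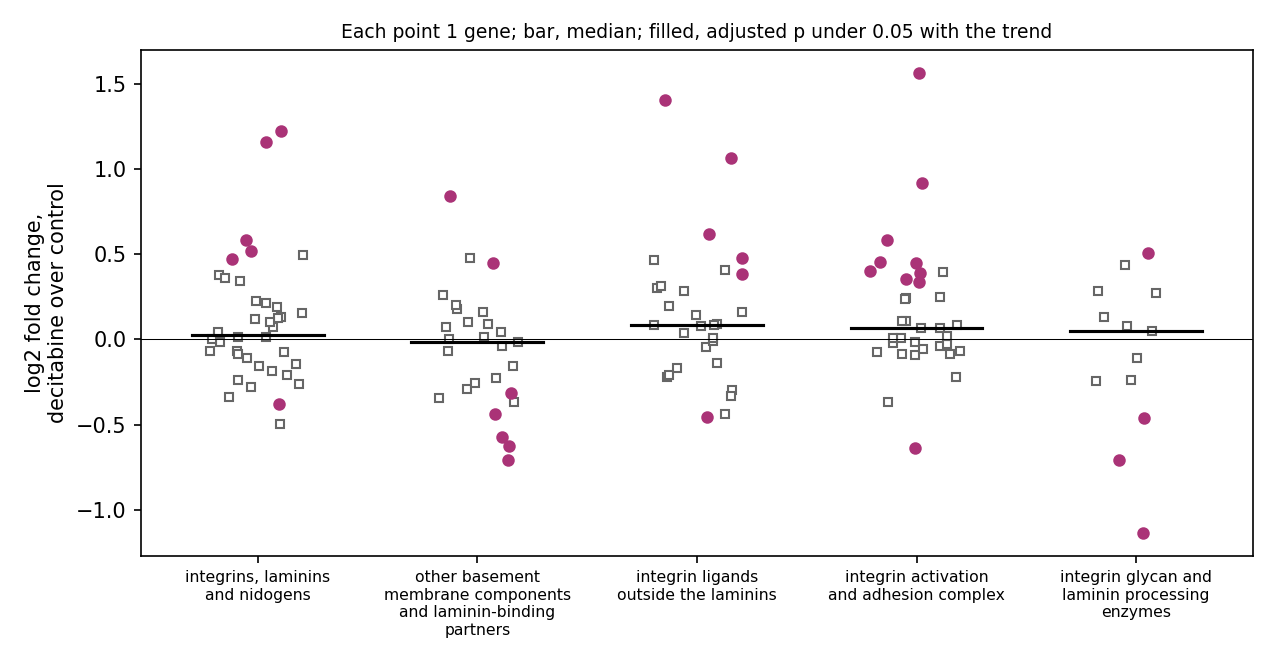
Log2 fold change, decitabine over control, of each gene in the integrin, laminin and nidogen set and in the 4 surrounding lists (1 point per gene; bar, median); filled points had an adjusted p under 0.05 in limma with the intensity trend. All 5 medians lie between -0.01 and 0.09, and each list holds filled points on both sides of 0.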

How the data were processed

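The files hold 1 table of log2 values, 1 per array row and array, for 2 control and 2 decitabine arrays. The log2 values were deposited by the authors; per the labels, biotin-labelled target was made from column-purified total RNA with a kit for whole transcripts. The log base was inferred from the range, and the summarisation, background correction and normalization are not given in the sources used here. No detection level could be set.

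The platform annotation gave 1 gene symbol to 23521 of 41345 rows, several to 1814 and none to 16010. Rows with 1 symbol were kept, with the highest-mean row per gene, which gave 22180 genes. The 39 genes of interest matched 41 such rows, and all 39 had an Entrez identifier in the RefSeq table of assembly GRCm38.p6, also the build of the promoters. Columns of other series numbered 0.

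The sample titles gave groups and replicate numbers. Limma 3.58.1 in R 4.3.3 (lmFit, eBayes, two-sided, group as the only term) was run without and with an intensity trend on all genes, and tested on simulated data. Without the trend the prior had 3.07 degrees of freedom. The number of arrays limits the precision. The deviations of same-numbered arrays correlated at −0.018.

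The 39 genes, the lists of related genes and the tests were chosen with earlier results of these data known. Genes described with all arrays were those past the threshold in either fit, filled up to 8 by p-value. In each list the 2 genes with the smallest p-value were named. Older symbols were matched through RefSeq synonyms. The alternatives were quantile normalization, centred arrays, filters on dim genes, robust eBayes, a replicate block, averaging all rows of a gene, fitting every row, other thresholds and leaving out each array.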

Additional observations from a re-analysis of the deposited data

How the results depend on the processing

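The count of 0 genes without the trend became 2 (Itga7 and Nid1) when genes below the 25th percentile of level were dropped and at a threshold of 0.1, 6 when those below the median were dropped and with the intensity trend, and 11 at an unadjusted p under 0.05. It was 0 with quantile normalization, centred arrays, robust eBayes, averaged rows, all rows fitted and each array left out. The count of 6 with the trend became 2 (Itga7 and Nid1) with all rows fitted, and 2 to 7 when 1 array was left out, with 2 without either control array. Elsewhere it was 5 to 9. The calls over all genes moved likewise: without the trend from 32 of 22180 to 215 of 16635 and 1251 of 11090 with those filters, and with the trend from 1615 to 165 with all rows fitted and to 338 and 399 without control replicate 1 or 2. With the replicate number as a block it was 0 without the trend (smallest adjusted p = 0.169) and 9 with it, among them Itga1, Itgb5 and Itgb8; the labels give no shared culture or day for a number.

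With the trend or at an unadjusted p, the other basement membrane genes gave 7 and 11 calls in place of 0, the integrin ligands 6 and 9 in place of 0, the adhesion complex 10 and 13 in place of 1, and the glycan and laminin enzymes 4 and 5 in place of 0.

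Of 480 alternative log2 fold changes, 22 turned sign, in 12 genes, each within 0.23 of 0 as reported and none past a threshold. With centred arrays these were Itgav (−0.0096), Lama2 (−0.0209) and Lamc3 (−0.0124), with quantile normalization Lama2 (−0.0194), and with averaged rows Itgav (−0.0899). With 1 array left out, Itga11 ranged from −0.14 to 0.11, Itga2 ranged from −0.41 to 0.19, Itga2b ranged from −0.0659 to 0.12, Itga4 ranged from −0.29 to 0.16, Itga9 ranged from −0.55 to 0.18, Itgad ranged from −0.16 to 0.54, Itgav ranged from −0.0215 to 0.0520, Itgb4 ranged from −0.11 to 0.38, Itgb6 ranged from −0.11 to 0.56, Lama2 ranged from −0.12 to 0.13, Lama5 ranged from −0.0052 to 0.0893 and Lamc3 ranged from −0.28 to 0.31.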

Other observations

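The table held 2 rows that carry the symbol of one of the genes together with that of another gene, and 1 further row for Itgav alone. The row shared by Itgb4 and B230344G16Rik read 4.27 and 4.44 in the controls against 4.74 and 4.48 with decitabine, a log2 difference of 0.25. The row shared by Cerkl and Itga4 read 4.83 and 4.89 against 4.82 and 4.89. The second row of Itgav read 3.99 and 3.43 against 3.52 and 3.51, near the dim end of the array, and it differed in level from the row used, which read about 10 on every array. None of these rows entered either reported fit, but all of them entered the alternative that fitted every row, and the second row of Itgav also entered the one that averaged a gene's rows.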
